A study of Homo sapiens with 4 samples.

Results

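The cytosolic ribosomal protein genes encode the protein part of the ribosomes that translate nuclear messages, and the loops examined here are those with a start of such a gene in an anchor. The genes were the autosomal protein-coding genes whose symbols are RPL or RPS followed by a number, with at most a short suffix, together with RPLP0, RPLP1, RPLP2 and RPSA. The RPS6K kinases were left out. The rule gave 81 of 19229 autosomal protein-coding genes, of which 43 were large-subunit genes, 30 were small-subunit genes and 8 were paralogs that carry an L in the suffix, such as RPL22L1 and RPS27L. The loops come from H3K27ac HiChIP in the human melanoma line M14. In HiChIP, pieces of chromatin that touch in the nucleus are ligated, and the ligated pieces that carry a chosen protein or mark are pulled down. The mark here was acetylation of histone H3 on lysine 27 (H3K27ac), which is found on promoters and enhancers in use. Every culture held a hairpin (shRNA) that targets STAG2 once doxycycline is added, and STAG2 is one of the proteins of cohesin, the ring that extrudes chromatin loops. Doxycycline was left out for the WT group and was given over 5 days for the STAG2-KD group. Both groups came from one stably transduced line, so WT refers to cells that hold the hairpin but were not induced.

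A ribosome is built from a large and a small subunit, each made of folded ribosomal RNA covered with proteins from single-copy nuclear genes. These genes are scattered over the chromosomes, are among the most strongly transcribed in growing cells, and have short promoters that start transcription in a run of pyrimidines, the terminal oligopyrimidine or TOP tract. Loss of one copy of several of them, RPS19 and RPL5 among them, causes the inherited anemia named after Diamond and Blackfan.

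There were 4 labelled samples, 2 in each group, but the analysis had 1 loop list for WT and 1 for STAG2-KD, both attached to a replicate numbered 1. Each loop is a pair of 5 kb anchors on hg19, and the lists gave neither a read count nor a score, so the depth behind a loop was unknown. In total there were 27289 loops for WT and 25621 for STAG2-KD. With a single list for each state, replicate spread could not be measured, and no test was made. The intervals below are exact Clopper-Pearson binomial intervals at 95%, which cover counting error only. Loops of one gene share an anchor and are not independent, and the spread between cultures is not in them. In a bulk population, a contact held by more cells and a contact made more often per cell cannot be told apart. As a check of the cell type, 8 of 11 autosomal melanocyte lineage genes had a loop in either list, 72.7% (39.0 to 94.0), an interval that includes the 44.5% of all genes. Together they had 37 loops in WT and 27 in STAG2-KD. MITF, the lineage's master regulator, went from 7 to 2 loops and DCT from 3 to 0. By the rule given below, these 2 of the 8 looped genes were lower and none was higher. Among all genes with a loop in either list 23.4% were lower and 16.9% higher. SOX10 had 4 loops in each list, PAX3 5 and 7, MLANA 3 and 5, PMEL 7 and 4, EDNRB 6 and 4, and TYRP1 2 and 1. TYR, OCA2 and KIT had none.

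The first question was how many ribosomal protein genes took part in loops in each state. In the WT list 60 of the 81 genes had a loop, which is 74.1% (63.1 to 83.2), and in the STAG2-KD list 57 had one, 70.4% (59.2 to 80.0). Over all autosomal protein-coding genes the shares were 39.1% and 36.8%. Looped ribosomal protein genes were thus more frequent than looped genes in general in both lists, with intervals that did not reach the general shares, and the step from WT to STAG2-KD was small beside the width of either interval. A loop in either list was found at 63 genes, 77.8%, against 44.5% of all genes, and 54 genes had a loop in both. The general set is not limited to transcribed genes, and the part of transcription in the contrast was not tested.

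Among the large-subunit genes 34 of 43, or 79.1%, had a loop in WT (64.0 to 90.0) and 74.4% in STAG2-KD (58.8 to 86.5), and among the small-subunit genes 66.7% had one in each list (47.2 to 82.7). The intervals of the subunits overlapped over most of their width. Of the 8 paralogs, 6 had a loop in WT and 5 in STAG2-KD. Some ribosomal protein genes hold small nucleolar RNAs in their introns, the guides of ribosomal RNA modification. Of 27 such host genes 20 had a loop in WT and 20 in STAG2-KD, 74.1% in each, against 74.1% and 68.5% of the 54 genes without one.

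Other gene groups of the protein synthesis and turnover machinery were set beside them, from lists chosen by function. A loop was found at 64.1% of 78 mitochondrial ribosomal protein genes in each list. The proteasome, which degrades tagged proteins, had loops at 72.7% of 33 subunit genes in each list. Other genes whose messages carry a TOP tract, such as the elongation factor gene EEF1A1, had loops at 80% of 20 genes in WT and 75% in STAG2-KD. For 24 ribosome biogenesis genes, which transcribe and process ribosomal RNA, the shares were 91.7% (73.0 to 99.0) and 75% (53.3 to 90.2). The cytosolic ribosomal protein genes lay within the range of these groups. A gene could have a loop at any 5 kb bin that held one of its starts, and the groups differed in such bins. The mean per gene was 1.49 for the cytosolic and 1.79 for the mitochondrial ribosomal protein genes. It was 2.88 for the proteasome, 3.6 for the other TOP genes, 3.21 for ribosome biogenesis and 2.82 for all genes. The part of this difference in the shares was not tested.

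**Figure D1:**
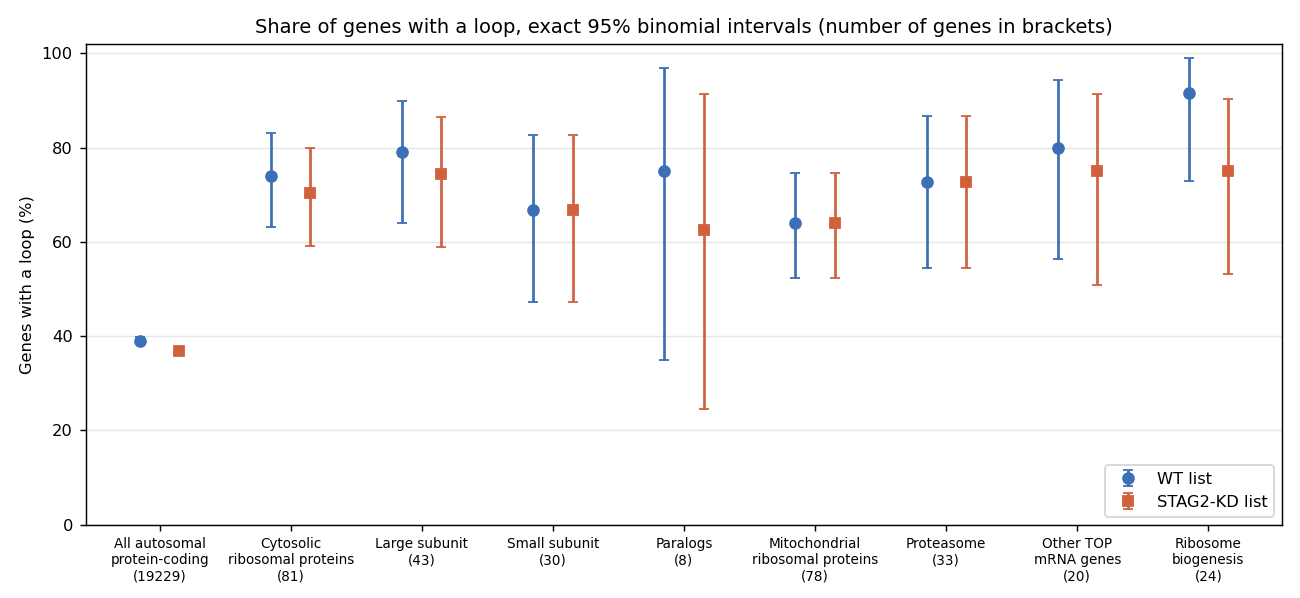
Share of genes with at least 1 loop (y axis, percent) in the WT list (circles) and the STAG2-KD list (squares) for gene groups along the x axis, with the number of genes in brackets and exact 95% binomial intervals as bars. The 81 cytosolic ribosomal protein genes stand at 74.1% and 70.4%, above the 39.1% and 36.8% of all autosomal protein-coding genes and among the other protein synthesis groups.

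Genes without a loop in either list numbered 18, among them RPL3L, RPL5, RPL7, RPL8, RPL10L, RPL17, RPL34, RPL35A, RPL38, RPLP1, RPS3A, RPS12, RPS19, RPS20, RPS23 and RPS24. RPL3L and RPL10L are tissue-restricted paralogs of muscle and testis, and the others named code for components of nearly all ribosomes. For 6 of the 18 an anchor of either list lay in the next 5 kb bin, as at RPS19, RPS12 and RPL38. The nearest anchor was a median of 50 kb away over the 18 genes and 1195 kb away at RPL7. Genes without a loop had a median of 4 protein-coding genes with a start within 250 kb, with a range from 0 to 30, and genes with a loop a median of 8, with a range from 2 to 34. RPL10L and RPS23 had none in that window. The part of gene density in the presence of a loop was not tested.

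Promoter sequence was compared for the same genes, in the 250 bases before the canonical start. The window was searched on both strands of GRCh37 for short words known as binding sites. The ETS core CCGGAAG, recognised by factors such as GABP, stood in 25 of 81 ribosomal protein promoters, 30.9% (21.1 to 42.1), against 11.9% of all 19229 promoters. The word TCTCGCGA, which does not overlap the ETS core, stood in 14, 17.3% (9.78 to 27.3), against 1.54% of all promoters. The remaining words were near their general shares. GGGCGG, the GC box, stood in 56.8% against 58.9%, TATAAA in 9.88% against 9.42%, and AAGATGGC, the core of a YY1 site, in 1.23% against 1.32%. The cyclic AMP response element TGACGTCA stood in 4 promoters, 4.94% (1.36 to 12.2), against 2.41%, an interval that includes the general share. A match is a description of the letters and not a bound site.

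Between genes with and without a loop, the ETS core stood in 23 of 63 promoters, 36.5% (24.7 to 49.6), and in 2 of 18, 11.1% (1.38 to 34.7). The intervals overlapped. TCTCGCGA stood in 10 of the 63 and in 4 of the 18. The annotated message opened with a C and at least 4 further pyrimidines at 42 of the 63 genes, 66.7% (53.7 to 78.0), and at 14 of the 18, 77.8% (52.4 to 93.6). In all, 69.1% of the ribosomal protein genes had such a tract against 4.53% of all genes. A strict core of the motif of CTCF, the DNA-binding factor at which cohesin halts, lay in a start bin of 3 of 81 genes, 3.70% (0.770 to 10.4), namely RPL3, RPL5 and RPLP0, against 6.02% of all genes. The interval includes the general share. The ribosomal protein genes had a mean of 1.49 start bins against 2.82 for all genes, and the shares were not adjusted for this.

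The loop patterns described below are each shown here by the 250 bases before the start of one gene, 5′ to 3′ on the gene's own strand of GRCh37, with matches to the searched words in capitals. RPS27 (chr1:153962988-153963237, plus strand) had the most loops of a core gene and no match. RPS14 (chr5:149829303-149829552, minus strand) kept a like number of loops in both lists and held the ETS core at 2 places and a GC box. RPL19 (chr17:37356286-37356535, plus strand) had more loops in STAG2-KD and held the ETS core. RPL29 (chr3:52029912-52030161, minus strand) had most of its loops in WT and held the ETS core and a GC box. RPS19 (chr19:42364075-42364324, plus strand) had no loop and held TCTCGCGA 3 times, a pair of these overlapping on opposite strands. No annotated exon lies in any of these windows.
RPS27: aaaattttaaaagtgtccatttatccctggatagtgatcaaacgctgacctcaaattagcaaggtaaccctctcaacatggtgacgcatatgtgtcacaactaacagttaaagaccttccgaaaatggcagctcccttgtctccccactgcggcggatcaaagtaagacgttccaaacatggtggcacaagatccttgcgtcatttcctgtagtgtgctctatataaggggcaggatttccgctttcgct
RPS14: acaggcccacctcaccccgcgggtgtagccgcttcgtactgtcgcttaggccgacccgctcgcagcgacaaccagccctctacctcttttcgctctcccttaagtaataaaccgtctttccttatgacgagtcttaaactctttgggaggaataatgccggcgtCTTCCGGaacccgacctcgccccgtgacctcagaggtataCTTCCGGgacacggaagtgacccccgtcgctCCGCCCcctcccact
RPL19: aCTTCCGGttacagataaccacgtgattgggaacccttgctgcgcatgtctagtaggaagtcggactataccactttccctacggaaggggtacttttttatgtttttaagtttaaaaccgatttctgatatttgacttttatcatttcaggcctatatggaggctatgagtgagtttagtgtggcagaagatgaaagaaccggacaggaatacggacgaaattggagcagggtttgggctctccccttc
RPL29: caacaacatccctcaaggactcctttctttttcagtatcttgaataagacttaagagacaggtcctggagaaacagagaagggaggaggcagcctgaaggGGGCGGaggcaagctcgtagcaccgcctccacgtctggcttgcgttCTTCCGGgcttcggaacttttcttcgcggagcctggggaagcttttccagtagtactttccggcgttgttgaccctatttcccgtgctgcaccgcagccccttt
RPS19: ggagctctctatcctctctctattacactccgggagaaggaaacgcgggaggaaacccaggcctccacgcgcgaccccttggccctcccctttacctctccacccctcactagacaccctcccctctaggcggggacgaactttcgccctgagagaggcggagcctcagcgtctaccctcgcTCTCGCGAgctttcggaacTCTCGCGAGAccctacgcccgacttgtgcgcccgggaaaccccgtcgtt

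The number of loops was compared next. At ribosomal protein starts there were 229 WT loops and 204 STAG2-KD loops, or 83.9 and 79.6 per 10000 listed loops. A loop with the same bins at both anchors in both lists was called shared. There were 105 shared, 124 WT-only and 99 STAG2-KD-only loops, 328 different loops in all. Shared loops were 45.9% of those in WT (39.3 to 52.5) and 51.5% of those in STAG2-KD (44.4 to 58.5). Of the loops held by a single list, 44.4% were in STAG2-KD (37.8 to 51.2), against 47.7% of such loops at any protein-coding start.

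To set loops at ribosomal protein genes beside those of other genes, each loop end on a protein-coding start was counted, so that a loop joining a pair of starts counts at both. Of 233 such ends at ribosomal protein starts in WT 46.8% belonged to shared loops (40.2 to 53.4), against 42.5% of 20400 ends at all protein-coding starts. In STAG2-KD the values were 52.4% of 208 ends (45.4 to 59.4) and 45.1% of 19230. The share in STAG2-KD was above the general one by a margin just past its interval, and the share in WT was not.

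Most loops held by a single list joined anchors that were both listed in the other one as well. Start anchors of ribosomal protein genes numbered 68 in the WT list and 64 in the other, and 59 were used in both. Partner anchors numbered 220 and 198, and 104 served as partners in both. The overlap of anchors was not computed for genes in general. Among WT-only loops, both anchors also appeared in the STAG2-KD list, in other loops, for 59.7% (50.5 to 68.4), and among STAG2-KD-only loops both appeared in the WT list for 63.6% (53.4 to 73.1). At any protein-coding start the corresponding values were 44.7% and 46.2%. Neither anchor was in the other list for 2 WT-only loops, 1.61% (0.196 to 5.70), and 1 STAG2-KD-only loop, 1.01% (0.0256 to 5.50). At any protein-coding start these shares were 7.82% and 7.24%.

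Loops per start anchor averaged 3.43 in WT and 3.25 in STAG2-KD, against 2.62 and 2.61 over all anchors with a protein-coding start. A single loop was held by 26.5% of the ribosomal protein anchors in WT and 28.1% in STAG2-KD, against 43.5% and 44.8% in general. The per-gene loop numbers of the lists were related across the 81 genes, with Spearman's rho of 0.778, and across all protein-coding genes rho was 0.801. Genes without a loop in either list are tied and count in both values. A loop in either list was found at 77.8% of the ribosomal protein genes and at 44.5% of all genes. The values of rho are therefore not directly comparable. Each is a description across genes, which are not replicates.

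Gene by gene, 22 of the 63 looped genes had more loops in STAG2-KD, 29 had fewer and 12 had equal numbers. Over all 8564 protein-coding genes with a loop in either list, 2949 had more, 3721 had fewer and 1894 had equal numbers. The lean to fewer loops was thus also present over all looped genes. By the rule that called a gene higher when its STAG2-KD number plus 1 was at least 2 times its WT number plus 1, and lower when it was at most 0.5 times that, 6 of the 63 genes were higher, 15 were lower and 42 were neither. Among all 8564 genes with a loop in either list 16.9% were higher and 23.4% lower, beside 9.52% (3.58 to 19.6) and 23.8% (13.98 to 36.2) of the ribosomal protein genes, with intervals that include the general shares. With the first 50% of lines of each chromosome, 11 genes were higher and 9 lower, so the direction turned with the lines kept. General shares were not computed with these lines. Of the 21 called genes 12 differed by at least 3 loops, and 7 sat exactly at a limit of the rule. RPL7A, RPS27A and RPS16 had loops in STAG2-KD alone, and RPL26L1, RPL9, RPL4, RPS21, RPL15 and RPS6 had loops in WT alone. These were 3 and 6 of the 63 looped genes. Over all 8564 looped genes, 1055 had loops in STAG2-KD alone and 1484 in WT alone, so such genes were not more frequent here.

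**Figure D2:**
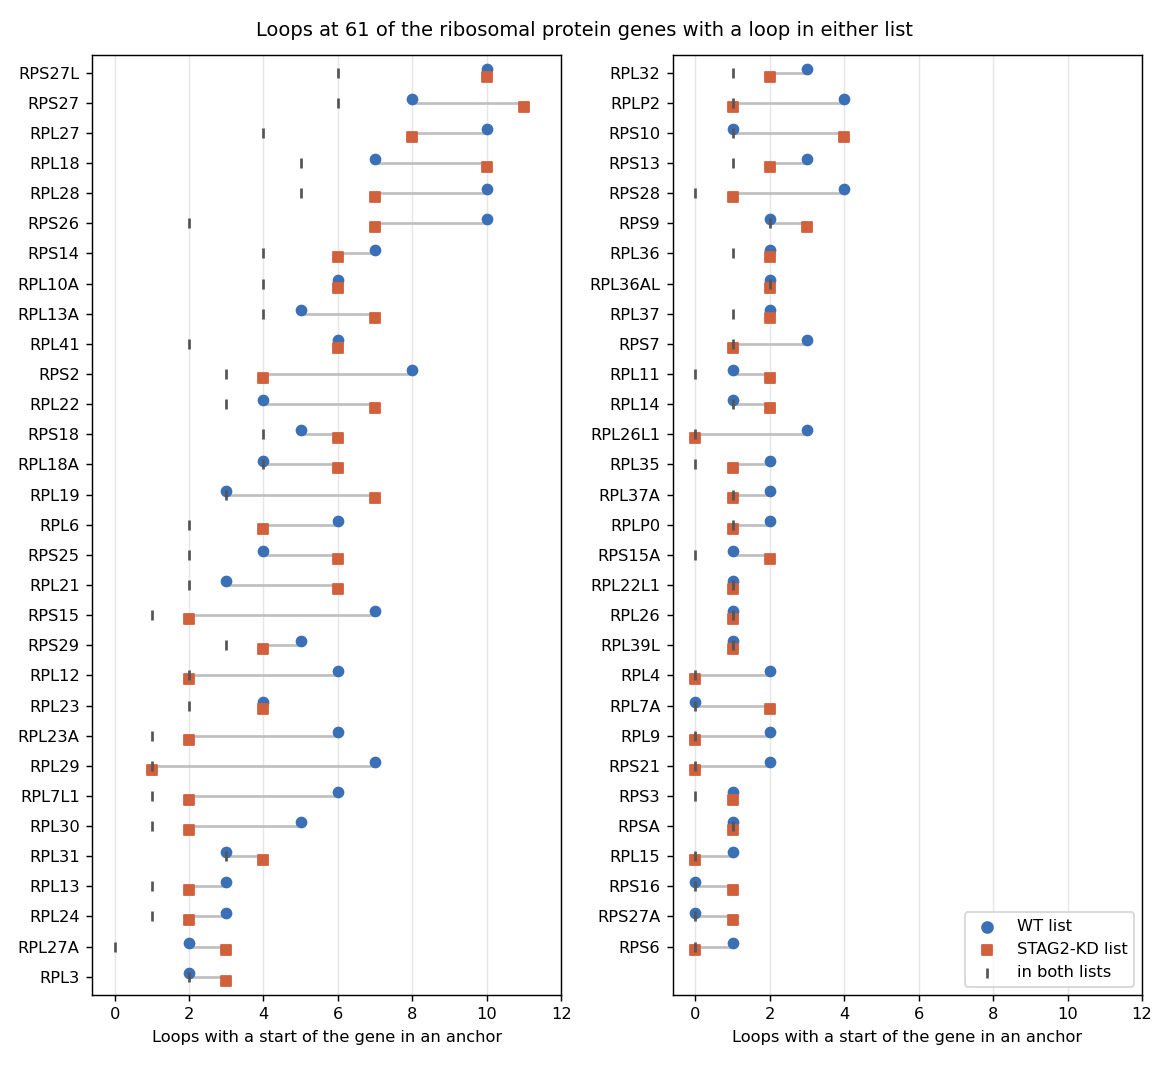
Loops with a start of the gene in an anchor (x axis, number) for 61 of the 63 ribosomal protein genes with a loop, ordered by the sum of both lists, for the WT list (circles), the STAG2-KD list (squares) and loops found in both (vertical ticks). RPS27L and RPS27 lead with 10 and 10 and with 8 and 11 loops, and the widest gaps are those of RPL29 (7 against 1) and RPS15 (7 against 2).

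The genes with the most loops came from both subunits. RPS27L, a paralog of RPS27 that responds to p53, had 10 loops in each list and 6 in common. They ran 20 to 250 kb from its start on chromosome 15, and the shared ones reached TPM1, LACTB and APH1B. RPS27 itself (chr1:153963238-153964631, plus strand), a zinc-finger protein of the small subunit, had 8 WT loops and 11 STAG2-KD loops, 6 of them shared. Shared loops of 445 and 425 kb led from RPS27 to the starts of S100A4 and S100A2, which encode calcium-binding proteins, and 3 of 215 to 260 kb led to INTS3, a subunit of the Integrator complex. Another shared loop of 230 kb led to UBAP2L and C1orf43. The 5 STAG2-KD-only loops of RPS27 included partners at ILF2 (320 kb), TPM3 and SLC39A1 (25 kb), and its WT-only loops, of 200 and 185 kb, had no transcript start at the partner anchor. RPS27 has no other protein-coding gene in its start bin, so these loops are not split with a neighbor.

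RPL27 had 10 WT loops and 8 STAG2-KD loops, 4 of them shared. The shared ones were short links to AARSD1, RUNDC1 and VAT1 and a loop of 240 kb without a partner start. In WT alone it joined MLX at 435 kb and BECN1, an autophagy gene, at 185 kb. A STAG2-KD-only loop of 165 kb ended in an anchor that holds further starts of BECN1 and that of PSME3. RPL28, in a gene-dense stretch of chromosome 19, had 10 and 7 loops with 5 shared, and RPL18, on the same chromosome, had 7 and 10 with 5 shared. RPL18 joined EMP3 at 295 kb and the stress-response gene PPP1R15A at 255 kb in both lists, and the ferritin light chain gene FTL at 345 kb in WT alone. Its longest loop, to LIG1, was in STAG2-KD alone. The start bins of RPL18 and RPL28 also hold starts of FAM83E and SPHK2 and of TMEM238, so their loops cannot be assigned to one gene.

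RPL10A had 6 loops in each list and shared 4, among them links to PPARD (125 kb) and ZNF76 (210 kb). The longest WT loop of the set, 455 kb, started at RPL10A, was WT-only and had no transcript start at its far anchor. RPL13A, which also acts in a complex that silences inflammatory messages, had 5 loops in WT and 7 in STAG2-KD and shared 4, reaching RRAS at 150 kb and FUZ at 325 kb.

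The loops of RPS26 changed most among the genes with many. RPS26 (chr12:56435135-56438481, plus strand), which contacts the message near the exit site of the small subunit, had 10 loops in the WT list and 7 in the other, but shared 2. One of the shared loops led to PA2G4 (60 kb), a growth regulator, and the other to RPL41. Loops in WT alone led to CD63, GDF11, SARNP, DNAJC14, DGKA, RNF41 and, at 75 kb, to the anchor with CDK2 and the melanosome gene PMEL. Loops in STAG2-KD alone led to ITGA7, ESYT1, SMARCC2 and, at 70 kb, to the neighboring anchor with starts of PMEL and RAB5B. The shared loop to RPL41 ends in a bin that also holds a start of ESYT1, so ESYT1 was reached in both lists. ERBB3, a receptor tyrosine kinase gene, was joined by RPS26 in both lists but in adjacent bins, 40 kb away in the WT list and 35 kb in the other, so these do not count as shared.

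**Figure D3:**
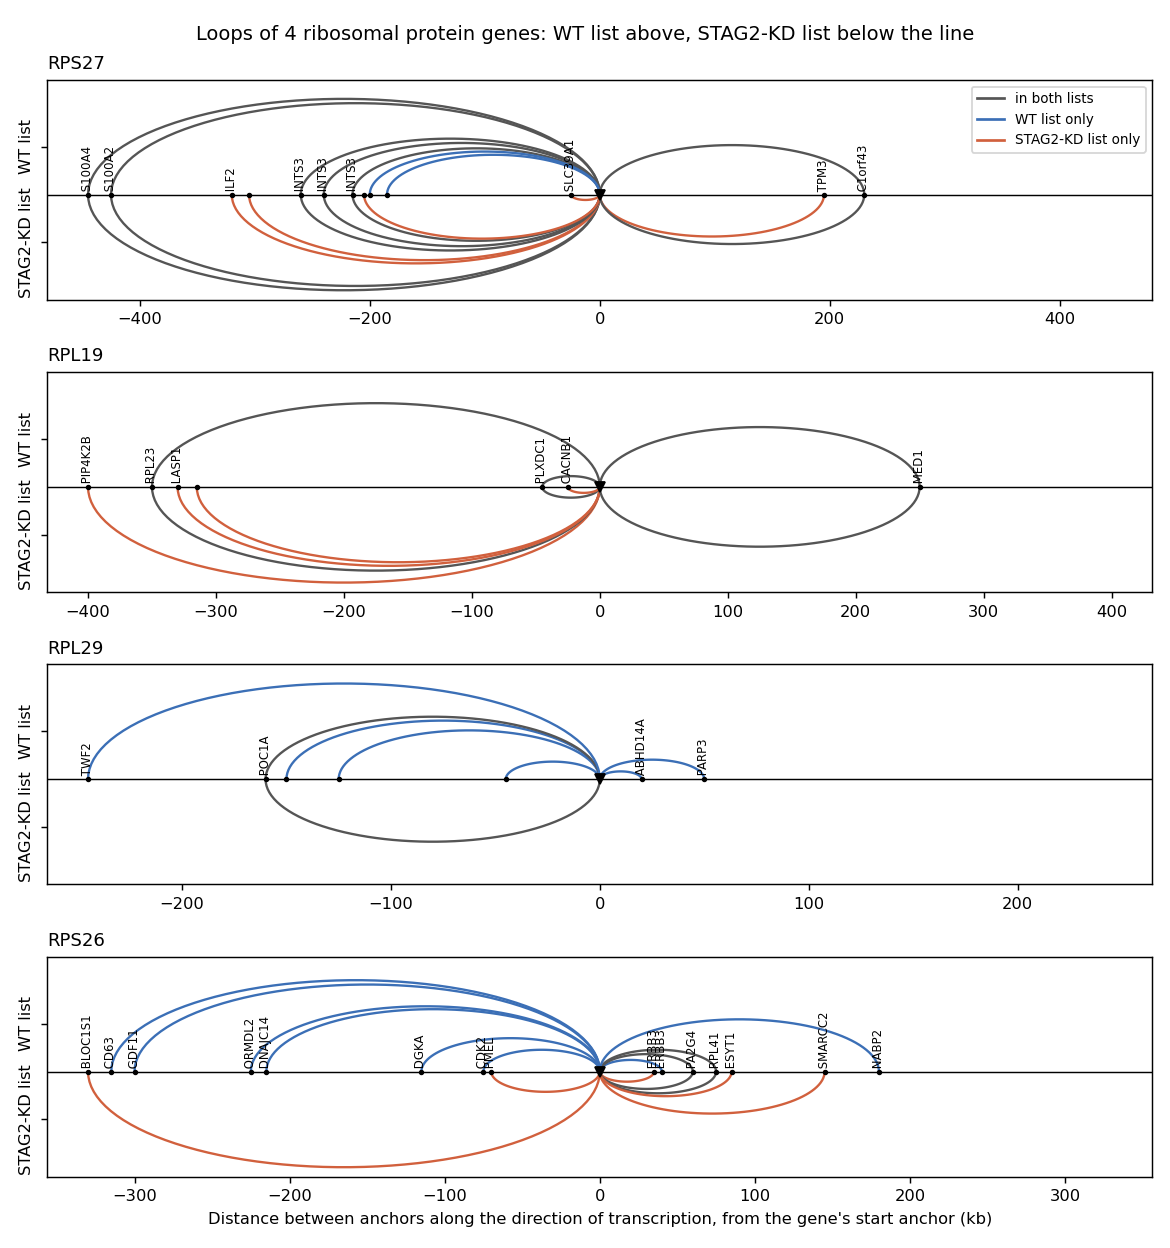
Loops of RPS27, RPL19, RPL29 and RPS26 drawn as arcs against distance in kb from the start anchor along the direction of transcription (x axis), with the WT list above and the STAG2-KD list below each line. Arcs in both lists are gray, WT-only arcs blue and STAG2-KD-only arcs orange, arc height has no unit, and one protein-coding gene is named per partner anchor. RPL19 has 3 arcs in WT and 7 in STAG2-KD, RPL29 has 7 and 1, and RPS26 has 2 in common.

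Of the genes called higher, RPL7A had a ratio of 3 after adding 1 loop to both lists. RPL7A, which lies in the surfeit cluster of housekeeping genes on chromosome 9, had none in WT and 2 in STAG2-KD, at SURF4 (25 kb) and REXO4 (65 kb). RPS10 went from 1 to 4 loops, all of 140 to 260 kb and none with a transcript start at the partner anchor. RPL19 went from 3 to 7 and kept all 3, including one to the Mediator subunit gene MED1 at 250 kb. RPS16 and RPS27A, which makes a ribosomal protein fused to ubiquitin, each went from 0 to 1. The start bins of RPS10, RPS16 and RPS27A also hold starts of RPS10-NUDT3, SUPT5H and CLHC1. Their loops therefore cannot be assigned to one gene.

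Falls were led by RPL29 and RPL26L1, each with a ratio of 0.25. RPL29 (chr3:52027538-52029911, minus strand), a large-subunit protein that also binds heparin, had 7 loops in WT and 1 in STAG2-KD. The remaining loop joined POC1A at 160 kb, and among those found in WT alone were loops to RRP9 (50 kb), a processing factor of ribosomal RNA, to PCBP4 (20 kb) and to TWF2 (245 kb). RPL26L1 had 3 loops in WT and 0 in STAG2-KD. RPS15, in the head of the small subunit, had 7 and 2 loops with 1 shared, at FAM174C, and its WT-only partners were MIDN, NDUFS7, DAZAP1, C19orf25, REEP6 and ADAMTSL5. RPL4, RPL9 and RPS21 each had 2 loops in WT and 0 in STAG2-KD. Those of RPL4, whose protein lines the tunnel of the nascent chain, led to TIPIN and MAP2K1, the gene of the kinase MEK1. Those of RPS21 led to LSM14B (265 kb) and to the proteasome gene PSMA7 (245 kb), and those of RPL9 to UGDH and SMIM14. The bins of the RPL4 and RPL9 loops also hold starts of ZWILCH and LIAS, so these loops cannot be assigned to one gene.

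Of the proteins of the ribosomal stalk, which recruits elongation factors, RPLP0 had 2 loops in WT and 1 in STAG2-KD, the one in common with PXN at 65 kb. RPLP2 had 4 and 1 and kept the loop to GATD1, and RPLP1 had none. The GATD1 loop lies on a bin that also holds a start of PIDD1, so it cannot be assigned to one gene. RPL5 and RPL11 hold MDM2 in check when ribosome assembly fails. RPL5 had no loop, and RPL11 had 1 loop in WT and 2 in STAG2-KD with none in common, among them a STAG2-KD-only loop to ELOA at 55 kb. RPS14, the gene lost in the deletion that gives a macrocytic anemia, had 7 and 6 loops with 4 shared, including TCOF1 at 90 kb, which promotes transcription of ribosomal RNA, and DCTN4 at 310 kb. RPS19 had none.

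RPS6, the ribosomal protein phosphorylated downstream of mTOR, had 1 loop in WT, to DENND4C at 150 kb, and 0 in STAG2-KD. RPS3, at the entry of the message, had 1 loop in each list but not the same one, with ARRB1 as the partner in STAG2-KD. RPL3, at the peptidyl transferase center, kept both of its WT loops, one of which led to the stress-response factor gene ATF4 at 205 kb, and had 3 in STAG2-KD. RPSA, also known as a laminin receptor, had the same single loop in both lists, of 25 kb to SLC25A38. Among the paralogs, RPL22L1 had the same single loop to EIF5A2 (40 kb), while RPL22 had 4 WT loops, 7 STAG2-KD loops and 3 in common, at KCNAB2, at ICMT and at an anchor without a start. The bin of the RPL22 loops also holds a start of a further protein-coding gene. In all, 5 genes had identical loops in both lists, namely RPL22L1, RPL26, RPL36AL, RPL39L and RPSA, none with more than 2 loops. The share of such genes among all looped genes was not computed.

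Loops between ribosomal protein genes were searched for next, since several lie near each other. There were 4, and all 4 were in both lists. RPS26 and RPL41, a gene for one of the shortest known proteins, were joined over 75 kb on chromosome 12. RPS29 and RPL36AL were joined over 35 and 20 kb on chromosome 14, through separate starts of RPS29. RPL23 and RPL19 were joined over 350 kb on chromosome 17. RPL36AL shares its bin with MGAT2, RPS29 has LRR1 in a start bin, and RPL41 shares its bin with ESYT1 and ZC3H10, so the gene at those ends cannot be told apart. RPL23 and RPL19 were alone in their bins.

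RPL41 had 6 loops in each list and shared 2, with RPS26 and with CD63, a tetraspanin gene, at 390 kb. CD63, CDK2, PMEL and ERBB3 were the 4 partner genes that joined more than one ribosomal protein gene, RPS26 and RPL41 in each case. A STAG2-KD-only loop of RPL41 led to STAT2, of the interferon response, at 240 kb. RPL23 joined the anchor of the proteasome gene PSMB3 in both lists, from the first of its start bins in WT (100 kb) and from the next one in STAG2-KD (105 kb). RPS29 had 5 and 4 loops, and of the 3 in both lists one joined DNAAF2.

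The far ends of the loops were then compared. A protein-coding start lay in the partner anchor of 66.1% of the loop ends at ribosomal protein genes in WT (59.6 to 72.1) and 65.9% in STAG2-KD (59.0 to 72.3), against 51.2% and 50.4% of the ends at all protein-coding starts. The intervals lay above the general shares in both lists, and each list's value lay within the interval of the other. Shared loops had a coding partner at 74.3% of ends (65.1 to 82.2), WT-only loops at 58.9% (49.7 to 67.6) and STAG2-KD-only loops at 56.6% (46.2 to 66.5). The same order held at all protein-coding starts, at 55.8%, 47.8% and 45.9%. A noncoding start alone was at the partner for 4.72% of ends in WT and 5.29% in STAG2-KD. In all, 239 other protein-coding genes had a start in a partner anchor. The median number of coding genes within 250 kb was 7 over all 81 ribosomal protein genes and over all genes. It was 8 for ribosomal protein genes with a loop and 4 for those without. These medians count genes and not loop ends. In WT, the share of loops with any transcript start at the partner fell from 70.3% to 66.5% without chromosome 19. In STAG2-KD it fell from 70.6% to 65.0%. The part of gene density in the contrast was not tested.

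**Figure D4:**
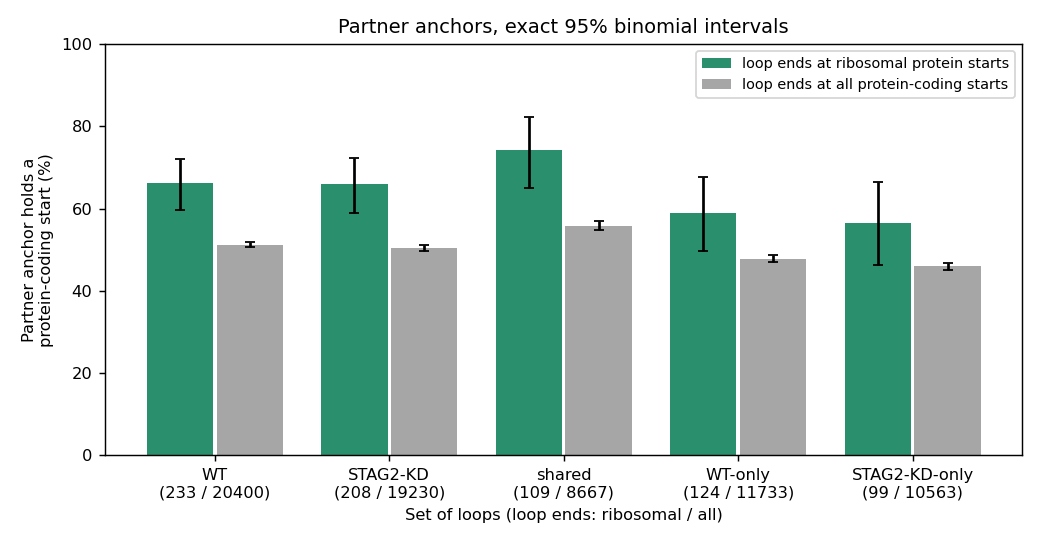
Share of loop ends whose partner anchor holds a protein-coding start (y axis, percent) for loop ends at ribosomal protein starts (green) and at all protein-coding starts (gray), by set of loops along the x axis with the number of ends, and exact 95% binomial intervals as bars. The ribosomal protein bars stand at 66.1% in WT and 65.9% in STAG2-KD against 51.2% and 50.4%.

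Length was measured from the middle of one anchor to the middle of the other. Loops at ribosomal protein starts had a median of 125 kb (WT) and 107.5 kb (STAG2-KD), and those at all protein-coding starts 90 and 85 kb. Shared loops had a median of 105 kb, WT-only loops 137.5 kb and STAG2-KD-only loops 140 kb. The order was alike at all protein-coding starts, where shared loops had a median of 75 kb and the loops of either list alone 100 kb. Loops of 200 to under 500 kb made up 29.6% of the ends in WT (23.8 to 35.9) and 29.8% in STAG2-KD (23.7 to 36.5), against 18.9% and 19.1% at all protein-coding starts. They were spread over 35 of the 60 looped genes in WT and 30 of the 57 in STAG2-KD, RPS27 holding the most with 7 and 9. Taken per gene, the median of the genes' own medians was 123.75 kb (WT) and 90 kb (STAG2-KD).

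Lengths were also set side by side for the loops held by a single list. Loops of 100 to under 200 kb were 34.7% of WT-only loops (26.4 to 43.7) and 21.2% of STAG2-KD-only loops (13.6 to 30.6), while loops under 50 kb were 16.9% (10.8 to 24.7) and 25.3% (17.1 to 35.0). The intervals overlapped in both classes. At all protein-coding starts the ends of such loops leaned the same way, with 27.4% and 23.7% at 100 to under 200 kb and 23.8% and 26.9% under 50 kb. No loop of 500 kb or more was found at these genes in WT, where the exact interval ends at 1.60% of the 229 loops, and 3 were found in STAG2-KD, none of them in WT. One of these was a loop of 570 kb from RPL6 to MAPKAPK5. At all protein-coding starts such loops were 3.03% of ends in WT and 4.02% in STAG2-KD.

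**Figure D5:**
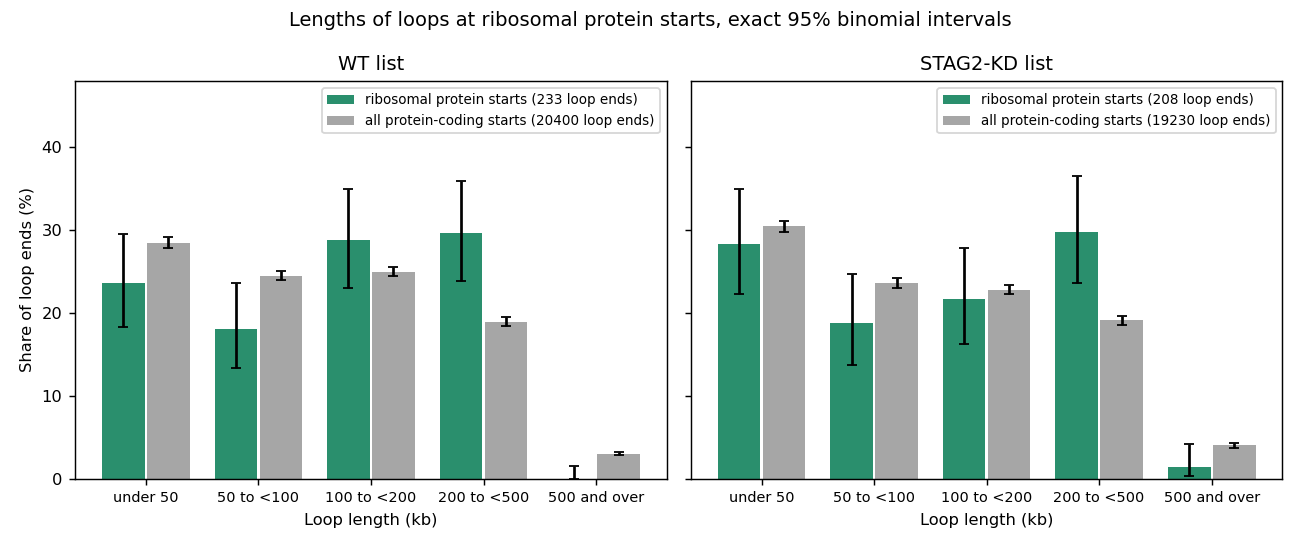
Share of loop ends (y axis, percent) by loop length in kb (x axis) at ribosomal protein starts (green) and all protein-coding starts (gray) in the WT list (left) and the STAG2-KD list (right), with exact 95% binomial intervals as bars. The class of 200 to under 500 kb holds 29.6% and 29.8% of the ribosomal protein ends against 18.9% and 19.1%.

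Direction was counted along the strand of each gene. Of the loop ends in WT 42.1% ran downstream (35.6 to 48.7), and 46.6% did in STAG2-KD (39.7 to 53.7). STAG2-KD-only loops ran downstream in 54.5% (44.2 to 64.6) and shared loops in 39.4% (30.2 to 49.3), with overlapping intervals. Chromosome 19 held the most ribosomal protein genes, 12, of which 10 had a loop. It carried 47 loops in each list, of which 28 were shared.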

How the data were processed

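H3K27ac HiChIP libraries of M14 cells were labelled as 2 WT and 2 STAG2-KD samples and grouped by title. Per the study's methods, the authors aligned reads to hg19 with HiC-Pro and called loops with FitHiChIP. Versions are not given in the sources used here, nor is whether a list merges both replicates. The deposited lists hold 3 columns (chromosome, left anchor start, right anchor end) and neither a count nor a score. A loop absent from a list may lie just short of the caller's limit.

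Starts of all annotated transcripts came from GENCODE release 44 lifted to GRCh37. A gene had a loop when a start fell in a 5 kb anchor. At 27 of 81 genes another protein-coding start shares a start bin. Ribosomal protein genes on chromosomes X and Y and readthrough genes were outside the rule. Promoters were the 250 bases before the canonical start. Python 3.11.15 with numpy 2.4.6, scipy 1.17.1 and matplotlib 3.10.9 was used, and the counting functions were tested on simulated data.

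Genes were named by rule: the 10 with most loops, the 6 largest rises and the 6 largest falls, those joined to each other, those with the longest loops, and genes chosen by role. A few genes that the rule takes are counted in all totals but are not reported here by name. A few further genes (RPL6, RPL15, RPL26, RPL39L) were named after their values were seen. The members and lists were chosen with earlier results of these data known. Melanocyte markers included the X-linked GPR143, which was outside the autosomal set. Alternatives were tolerances of 1 and 2 bins, other start definitions, wider anchors, leaving out paralogs or chromosome 19, loops of 1 Mb or less, the first 50% of lines, a fold of 1.5, coding partners only and, chosen after seeing the data, genes alone in their bins.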

Additional observations from a re-analysis of the deposited data

How the results depend on the processing

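Of 130 values under 12 alternatives, 105 stayed within the limit set for them (1.5 times for counts, the exact interval for shares, 5 kb for medians) and 25 did not. Under a tolerance of 2 bins 58.1% of the WT and 64.7% of the STAG2-KD loops were shared. With the first 50% of lines there were 97 and 94 loops, 37.1% and 38.3% of them shared, a WT median of 115 kb, 1 and 2 loops between ribosomal protein genes, and 11 genes higher against 9 lower, so the excess of lower genes depended on the lines kept. With a fold of 1.5, 11 genes were higher and 19 lower. At the main setting 23.8% of the looped ribosomal protein genes were lower and 9.52% higher, beside 23.4% and 16.9% of all looped genes. The general shares were not computed under the alternatives, so the counts of higher and lower genes there have no background. Without chromosome 19 the WT median was 132.5 kb, and with canonical starts or protein-coding transcripts only the STAG2-KD median was 117.5 kb. Without paralogs 2 loops between ribosomal protein genes were left in each list. For genes alone in their bins (chosen after seeing the data) the values were 39 and 37 genes with a loop, 150 WT loops with a median of 135 kb, 1 loop between ribosomal protein genes in each list, and 3 genes higher against 8 lower. These smaller counts follow from fewer genes or lines, and for the other changes the cause was not tested. No paired analysis was possible because WT and STAG2-KD were a single list each, so no replicate could be left out either. Read depth per loop was unknown.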
